A study of Mus musculus with 16 samples.

Results

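The miR-125 and miR-99/100 families are represented here by 5 mature miRNAs: mmu-miR-125a-5p, mmu-miR-125b-5p, mmu-miR-99a, mmu-miR-99b and mmu-miR-100. They were taken by name from the array design and are 5 of its 611 mouse miRNAs. All 5 were among the 235 miRNAs tested, which are those above background on the 2 arrays of 1 or more groups. Total RNA from primary mouse embryonic fibroblasts (MEFs) was hybridized to 16 one-colour miRNA arrays in 8 groups of 2. The groups were Ercc1-/- MEFs at passage 7 (P7, late) in 20% or 3% O2, WT MEFs at P7 in 20% or 3% O2, and the same 4 kinds of culture at passage 3 (P3, early). Ercc1 encodes a subunit of a DNA repair endonuclease, and fibroblasts that lack it are known to senesce early in culture. All cells were of a mixed C57Bl/6 and FVB/n background. The cell lines behind the arrays are not tied to arrays by the labels, so the 2 arrays of a group are treated as separate samples and p-values measure the spread between them, which may be technical in part. Ercc1 mRNA is not measured by a miRNA array, so the genotype labels could not be checked on these data.

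MiRNAs bind target mRNAs mainly through the seed, bases 2 to 8 from the 5′ end, so members of a family that share a seed share many predicted targets. MiR-125 is the vertebrate relative of the worm lin-4, the first miRNA described, and is abundant in fibroblasts and other mesenchymal cells. MiR-99 and miR-100 belong to an old family related to miR-10 and are known for targeting components of mTOR signalling. In mammals the families lie together with let-7, which restrains proliferation and growth factor genes, in 3 clusters that arose by duplication. The mature sequences (RefSeq, build GRCm38.p6) are shown with the seed in capitals because 2 seeds separate the 5 miRNAs into the families, while the members that behaved most unlike each other on these arrays carry the same seed.

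mmu-miR-125a-5p: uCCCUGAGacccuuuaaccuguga
mmu-miR-125b-5p: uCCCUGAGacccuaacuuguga
mmu-miR-99a: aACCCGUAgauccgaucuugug
mmu-miR-99b: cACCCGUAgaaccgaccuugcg
mmu-miR-100: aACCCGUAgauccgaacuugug

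MiR-125a-5p (24 bases) and miR-125b-5p (22 bases) share their first 13 bases and are 3 edits apart. MiR-99a and miR-100 differ by a single base, U16A, counted from the 5′ end of miR-99a. MiR-99b differs from miR-99a at 4 positions (A1C, U11A, U16C and U21C, with the base of miR-99a first), all outside the seed. With 1 base between miR-99a and miR-100, RNA of one may bind the probes of the other, and the size of such cross-hybridization was not tested here.

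The 5 miRNAs come from 6 genes in 3 clusters, each with 1 let-7 gene and all on the plus strand. On chromosome 9, Mir100 (chr9:41531437-41531458, the mature miRNA), Mirlet7a-2 and Mir125b-1 (chr9:41581940-41581961) lie within 50565 bases, overlapping the annotated non-coding gene Mir100hg. On chromosome 16, Mir99a (chr16:77598940-77598961), Mirlet7c-1 (chr16:77599672-77599693) and Mir125b-2 (chr16:77646279-77646300) lie within 47400 bases. On chromosome 17, Mir99b (chr17:17830194-17830215), Mirlet7e (chr17:17830366-17830387) and Mir125a (chr17:17830817-17830840) lie within 683 bases, overlapping the annotated protein-coding gene Spaca6. Mature miR-125b-5p is the same from both of its genes, so the array gives the sum of the chromosome 9 and chromosome 16 copies.

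Each of the 5 was read by 2 probes of 10 spots each. No spot of theirs was saturated, and 3.44% were left out as outliers. A signal is given as scaled log2 signal: the background-subtracted signal averaged over spots and probes, with every array set to the same mean over 57 miRNAs that were detected throughout the series. MiR-125a-5p, miR-125b-5p, miR-99a and miR-99b are in that set of 57. MiR-100 was above background on 15 of the 16 arrays and missed it on replicate 2 of the P7 Ercc1-/- MEFs in 20% O2. That array was the dimmest of the series, with a mean unscaled log2 signal of 5.80. Slide 1 carried the first replicates and slide 2 the second ones, and their arrays averaged 9.17 and 7.55 before scaling. On both slides the P7 arrays lay in one row and the P3 arrays in the other, so passage and row cannot be told apart. Of 12 miRNAs abundant in mesenchymal cells, 9 were above background on all 8 P7 arrays and 10 on all 8 P3 arrays, and none of 7 epithelial markers was above background on any array. Of 6 blood, 4 muscle, 5 neural and 5 liver or endothelial markers, 3, 1, 2 and 2 were above background on at least 1 P7 array, against 2, 0, 2 and 2 on at least 1 P3 array. Scaled signals below a floor of 2.82 were raised to it before the markers of each list were summed. The blood markers then had a log2 signal between 4.08 and 6.65 on the P7 arrays and between 4.23 and 6.25 on the P3 arrays. The muscle markers had 3.497 to 4.96 and 3.497 to 3.66. The neural markers had 3.82 to 6.63 and 4.01 to 4.30, and the liver and endothelial markers 3.82 to 4.54 and 4.22 to 5.09. The low ends of 4.08, 3.497 and 3.82 are sums of the floor alone, with no listed marker above it. The 1 neural marker tested, miR-129-5p, was called higher with passage (1.55) and in Ercc1-/- MEFs (2.09). No neural marker was above background on all 8 arrays of either passage, so these sizes rest in part on values not above background. The part of miR-129-5p in the changes below was not tested.

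With passage, 4 of the 5 miRNAs fell and miR-99b rose. Averaged over genotype and oxygen, miR-99a was 3.20-fold lower at P7 than at P3, miR-100 3.11-fold lower, miR-125b-5p 2.33-fold lower and miR-125a-5p 1.64-fold lower, while miR-99b was 2.15-fold higher. All 5 passed the test with the 16 arrays as separate samples (adjusted p under 0.05 by limma over the 235 miRNAs). Arrays of the same slide and passage deviated together, which neither this fit nor a replicate block takes in. On 1 mean per slide and passage, a fit of 4 values added after the data were seen, none of the 5 and 0 of 235 (0%) passed, with 59 at an unadjusted p under 0.05, and the adjusted p of the 5 ran from 0.208 for miR-99a to 0.561 for miR-125a-5p. The calls below therefore hold only where the arrays are taken as separate samples. Passage changed much of the array: 76 of the 235 miRNAs (32.3%) were called lower and 53 (22.6%) higher, and the median change over all 235 was -0.39. The median over the 5 was -1.22. The direction of miR-99b depends on the scaling: without scaling of the arrays its average change was 0.19 (adjusted p = 0.799) and it was lower at P7 in 3 of 8 pairs of arrays, against 1 of 8 after scaling.

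**Figure D1:**
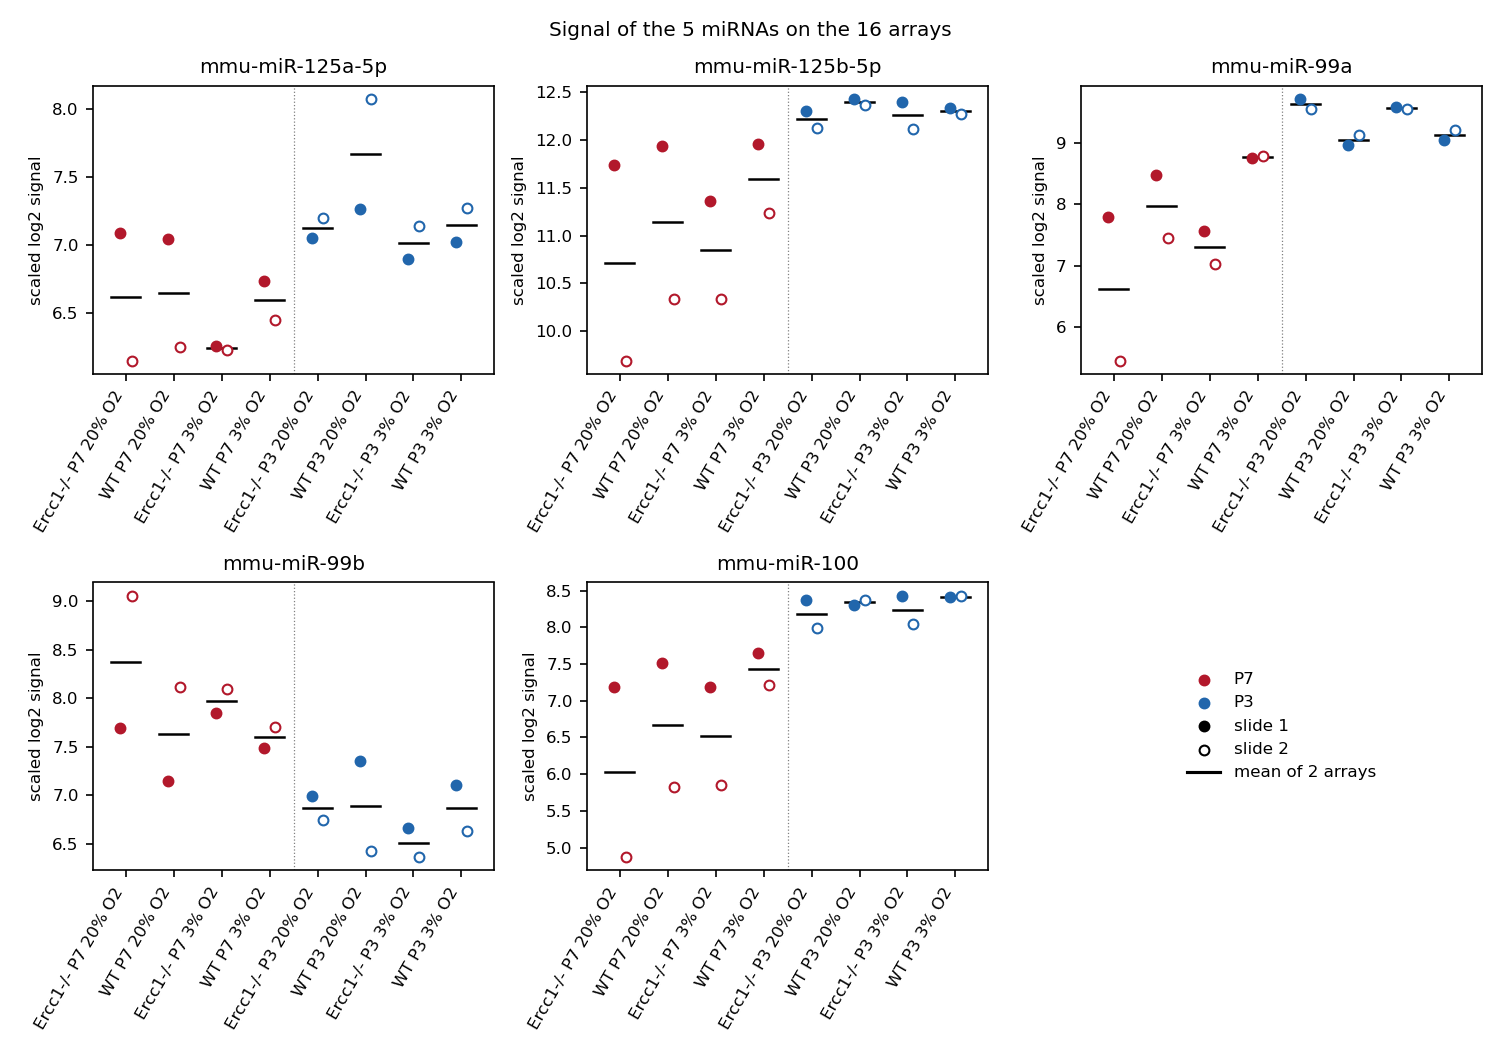
Scaled log2 signal of the 5 miRNAs on the 16 arrays (vertical axes, which do not start at 0), by group, with P7 groups in red on the left and P3 groups in blue on the right. Filled and open points are slide 1 and slide 2 and bars the mean of the 2 arrays. All P7 arrays lie below all P3 arrays for miR-125b-5p, miR-99a and miR-100, and 7 of 8 lie above them for miR-99b.

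MiR-125b-5p was the brightest of the 5. In Ercc1-/- MEFs it had a scaled log2 signal of 11.74 (slide 1) and 9.69 (slide 2) at P7 in 20% O2 and 11.36 and 10.33 at P7 in 3% O2, against 12.31 and 12.13 at P3 in 20% O2 and 12.40 and 12.12 at P3 in 3% O2. In WT MEFs it had 11.94 and 10.34 at P7 in 20% O2 and 11.96 and 11.23 at P7 in 3% O2, against 12.43 and 12.37 at P3 in 20% O2 and 12.34 and 12.28 at P3 in 3% O2. All 8 P7 arrays lay below all 8 P3 arrays, and on each of the 4 pairs of P7 arrays slide 2 was lower than slide 1. Over the 235 miRNAs, 13 (5.53%) had all P7 arrays below all P3 arrays, and miR-99a and miR-100 were also among these 13. The P3 arrays lay within 12.12 to 12.43, whereas the P7 arrays spread over 9.69 to 11.96. The averaged change of miR-125b-5p was -1.22 (SE 0.37, adjusted p = 0.0175), and slide 1 gave -0.62 against -1.82 from slide 2. The call was lost when arrays were scaled to the mean of all miRNAs (-1.74, adjusted p = 0.0606), without scaling (adjusted p = 0.0831) and without the filter on dim miRNAs (adjusted p = 0.0599).

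MiR-125a-5p, which carries the same seed from the chromosome 17 cluster, was far dimmer and changed less. It had 7.09 and 6.15 in Ercc1-/- MEFs at P7 in 20% O2 and 6.26 and 6.23 in 3% O2, against 7.05 and 7.20 at P3 in 20% O2 and 6.90 and 7.14 in 3% O2. In WT MEFs it had 7.04 and 6.25 at P7 in 20% O2 and 6.74 and 6.45 in 3% O2, against 7.26 and 8.07 at P3 in 20% O2 and 7.02 and 7.27 in 3% O2. The passages overlapped on slide 1, where the P7 arrays spanned 6.26 to 7.09 and the P3 arrays 6.90 to 7.26, and not on slide 2, where they spanned 6.15 to 6.45 and 7.14 to 8.07. Its change was -0.71 (SE 0.27, adjusted p = 0.0417), or -0.28 within slide 1 and -1.15 within slide 2. This is the least secure of the 5 calls: it was lost on leaving out any of 12 of the 16 arrays, with an adjusted p of up to 0.0968, and kept only without replicate 1 of the WT MEFs in 20% O2 at P7 or P3 or without either array of the P7 Ercc1-/- MEFs in 20% O2.

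MiR-99a had the largest average change of the 5. In Ercc1-/- MEFs it had 7.78 and 5.46 at P7 in 20% O2 and 7.57 and 7.03 at P7 in 3% O2, against 9.71 and 9.54 at P3 in 20% O2 and 9.59 and 9.54 at P3 in 3% O2. In WT MEFs it had 8.48 and 7.46 at P7 in 20% O2 and 8.76 and 8.78 at P7 in 3% O2, against 8.96 and 9.13 at P3 in 20% O2 and 9.05 and 9.20 at P3 in 3% O2. The 8 P7 arrays lay below the 8 P3 arrays, and the WT MEFs in 3% O2 came closest to them, with 8.78 at P7 against a lowest P3 array of 8.96. The averaged change was -1.68 (SE 0.35, adjusted p = 0.00639), made up of -1.18 within slide 1 and -2.17 within slide 2.

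MiR-100, 1 base away from miR-99a and encoded in another cluster, fell by a similar amount. In Ercc1-/- MEFs it had 7.18 and 4.87 at P7 in 20% O2 and 7.19 and 5.85 in 3% O2, against 8.37 and 7.99 at P3 in 20% O2 and 8.43 and 8.05 in 3% O2. In WT MEFs it had 7.52 and 5.83 at P7 in 20% O2 and 7.64 and 7.22 in 3% O2, against 8.31 and 8.38 at P3 in 20% O2 and 8.41 and 8.43 in 3% O2. The passages did not overlap, and the value of 4.87 is the one not above background. The averaged change was -1.63 (SE 0.40, adjusted p = 0.00911), or -0.999 within slide 1 and -2.27 within slide 2, and -1.35 (adjusted p = 0.00974) without that array.

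MiR-99b, with the same seed as miR-99a and miR-100, moved the other way after scaling. In Ercc1-/- MEFs it had 7.70 and 9.06 at P7 in 20% O2 and 7.85 and 8.09 in 3% O2, against 6.99 and 6.75 at P3 in 20% O2 and 6.66 and 6.36 in 3% O2. In WT MEFs it had 7.14 and 8.11 at P7 in 20% O2 and 7.49 and 7.70 in 3% O2, against 7.35 and 6.43 at P3 in 20% O2 and 7.10 and 6.63 in 3% O2. All but 1 of the 8 P7 arrays, that of WT MEFs in 20% O2 on slide 1, lay above the 8 P3 arrays. Of the 235 miRNAs, 6 (2.55%) had all P7 arrays above all P3 arrays, and miR-99b is not among these 6. The share with all but 1 of the 8 P7 arrays above was not counted. The averaged change was 1.11 (SE 0.30, adjusted p = 0.0124), or 0.52 within slide 1 and 1.70 within slide 2, and 0.59 (adjusted p = 0.259) when arrays were scaled to the mean of all miRNAs. On the unscaled log2 signal the averaged changes were -2.60 for miR-99a, -2.55 for miR-100, -2.14 for miR-125b-5p, -1.63 for miR-125a-5p and 0.19 for miR-99b, beside a median of -1.14 over all 235 miRNAs.

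**Figure D2:**
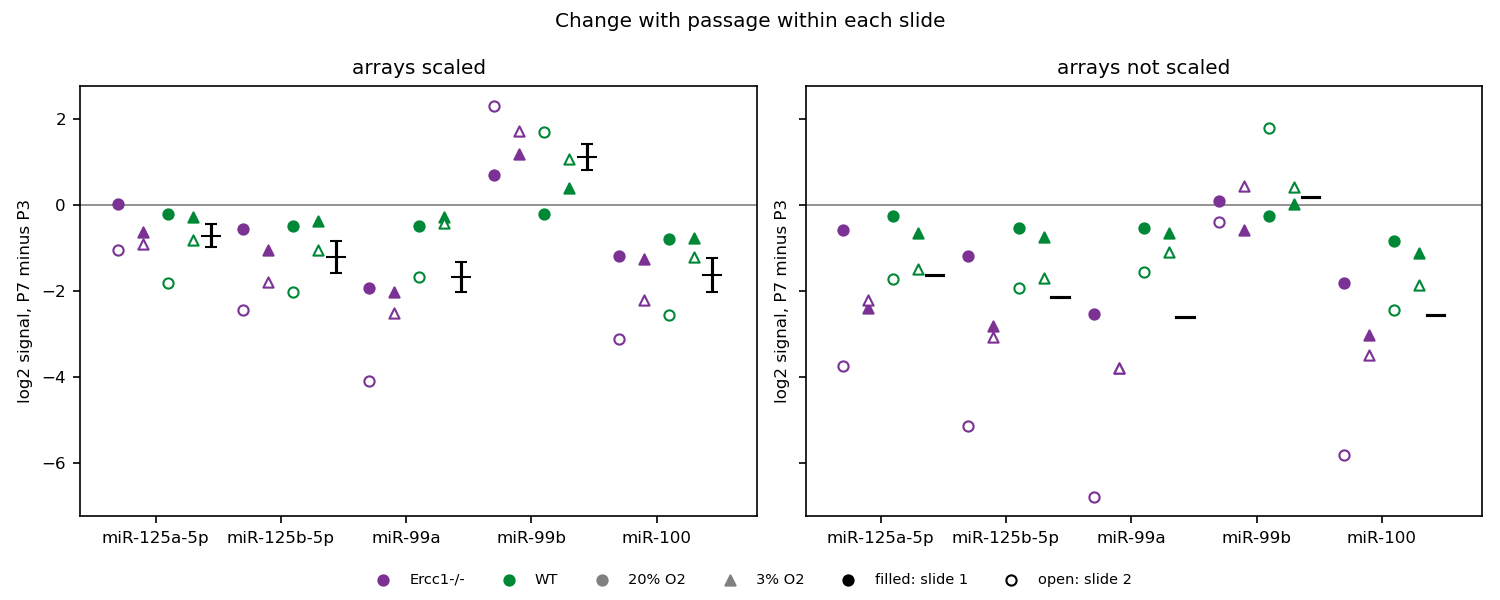
Change in log2 signal, P7 minus P3, within each slide for Ercc1-/- MEFs (purple) and WT MEFs (green) in 20% O2 (circles) and 3% O2 (triangles), with arrays scaled on the left and not scaled on the right. Black marks are the averaged change, with its SE for the scaled arrays. MiR-125b-5p, miR-99a and miR-100 lie below 0 in 8 of 8 pairs in both panels, and miR-99b lies above 0 in 7 of 8 pairs when scaled and in 5 of 8 when not.

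The 2 probes of each miRNA agreed in direction on both slides. For miR-99b, the averaged change was 1.52 by one probe and 0.83 by the other. For miR-125b-5p the probes gave -1.23 and -1.22, for miR-125a-5p -0.75 and -0.70, for miR-99a -1.70 and -1.60 and for miR-100 -1.42 and -1.72.

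The difference between 2 members on the same array does not depend on a scaling that shifts all miRNAs of an array alike, so it shows the unequal change within the families without that choice. It may still depend on array brightness. Over the P7 arrays the mean unscaled log2 signal had r = 0.84 with miR-99a and -0.94 with miR-99b, and its part in these differences was not tested. MiR-99a minus miR-99b had a median of -0.10 (from -3.60 to 1.33) over the 8 P7 arrays, against 2.71 (from 1.61 to 3.18) over the 8 P3 arrays. The 2 sets of arrays did not overlap, and the mean change of this difference was -2.78, with -1.70 on slide 1 and -3.87 on slide 2. Taken singly, miR-99a already had all 8 P7 arrays below the P3 arrays and miR-99b had 7 of 8 above them. How many pairs of other miRNAs parted in this way, here and for the differences below, was not counted. MiR-100 minus miR-99b had a median of -0.59 at P7 against 1.53 (from 0.96 to 1.95) at P3. Its P7 arrays lay between -2.29 and 0.38, apart from the dimmest array, where miR-100 was not above background and the difference has no exact value. The 2 genes of the chromosome 17 cluster that are members also parted: miR-125a-5p minus miR-99b had a median of -1.42 (from -2.90 to -0.10) at P7, against 0.34 (from -0.09 to 1.64) at P3, and fell in all 8 pairs. On slide 1 in WT MEFs in 20% O2 the difference fell by 0.0049, with -0.10 at P7 against -0.09 at P3.

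Within the miR-125 family the difference was smaller. MiR-125b-5p minus miR-125a-5p ranged from 3.54 to 5.22 at P7, against 4.29 to 5.51 at P3, and it was lower at P7 in 8 of 8 pairs with a mean change of -0.51. MiR-100 minus miR-99a changed by 0.04 on average, being lower in 4 and higher in 4 of 8 pairs. MiR-99a minus miR-125b-5p was also split, 4 pairs each way, although the chromosome 16 cluster encodes both. These differences are descriptions without a test.

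**Figure D3:**
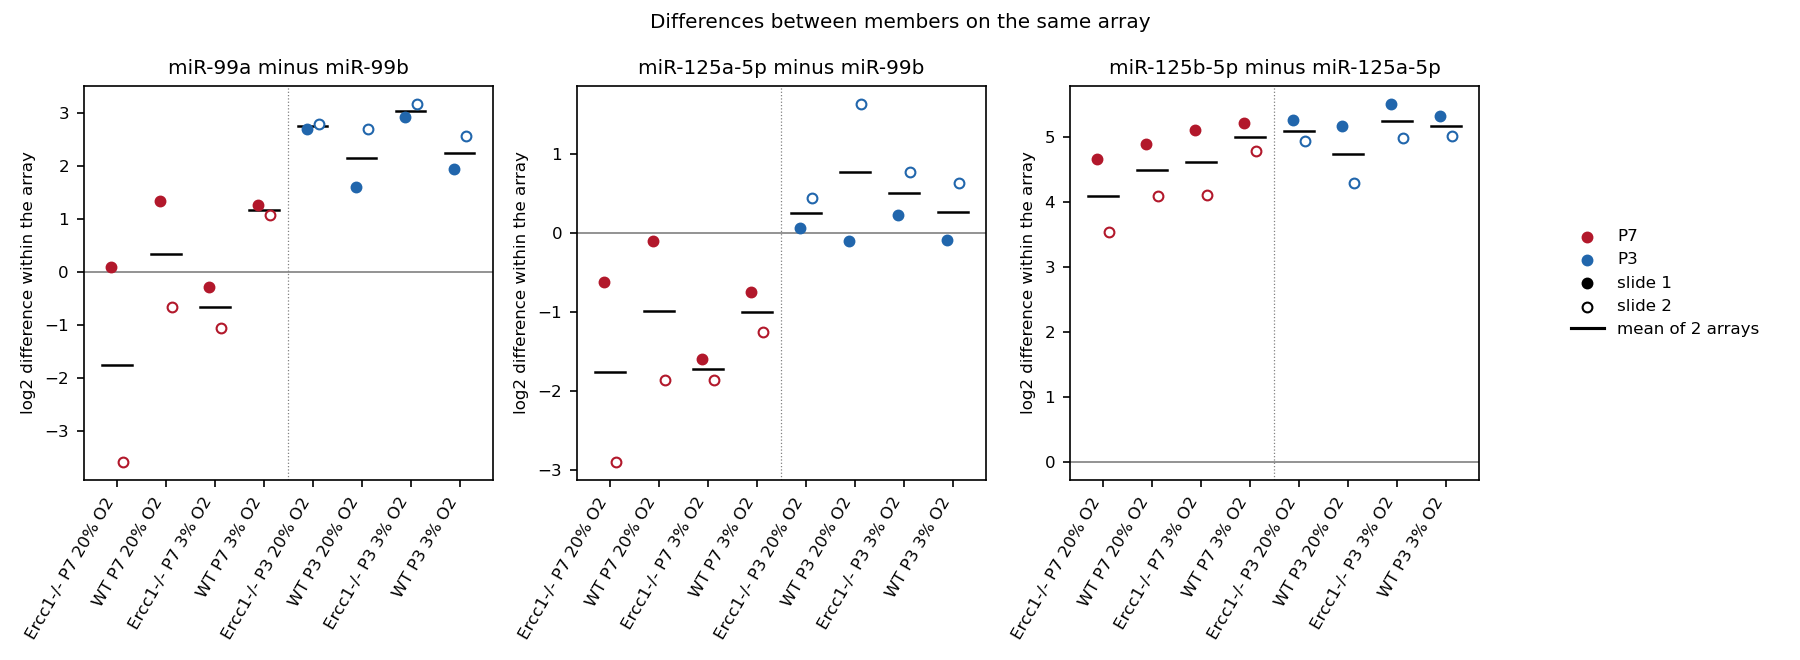
Log2 difference between 2 members on the same array (vertical axes), by group, with P7 groups in red on the left and P3 groups in blue on the right. Filled and open points are slide 1 and slide 2 and bars the mean of 2 arrays. The 8 P7 arrays lie below the 8 P3 arrays for miR-99a minus miR-99b and for miR-125a-5p minus miR-99b, and the passages overlap for miR-125b-5p minus miR-125a-5p.

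The signal of the members at P7 moved with the brightness of the array. Over the 4 dimmest P7 arrays (mean unscaled log2 signal of 5.80 to 7.91) miR-125b-5p spanned 9.69 to 11.36 and miR-99b 7.85 to 9.06, whereas over the 4 brightest (7.99 to 9.29) they spanned 11.23 to 11.96 and 7.14 to 7.70. For miR-125b-5p these ranges overlapped. At P3, over the 4 dimmest arrays (6.98 to 8.65) miR-125b-5p spanned 12.12 to 12.37 and miR-99b 6.36 to 6.75, and over the 4 brightest (9.31 to 9.77) 12.31 to 12.43 and 6.66 to 7.35, so that the dimmer P3 arrays tended to lower miR-99b, where the dimmer P7 arrays had higher. MiR-125a-5p also turned, spanning 6.15 to 6.26 on the dim and 6.45 to 7.09 on the bright P7 arrays, against 7.14 to 8.07 on the dim and 6.90 to 7.26 on the bright P3 arrays. On slide 2, 3 arrays of different passage had nearly the same brightness. The P7 arrays of WT MEFs in 20% O2 (7.08) and of Ercc1-/- MEFs in 3% O2 (7.06) had 10.34 and 10.33 for miR-125b-5p, against 12.37 on the P3 array of WT MEFs in 20% O2 (6.98). For miR-99b these P7 arrays had 8.11 and 8.09, against 6.43 on that P3 array, and for miR-100 5.83 and 5.85 against 8.38. These arrays were picked for their brightness after the values had been seen. The part of brightness, RNA quality or amount in the passage and genotype changes was not tested.

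**Figure D4:**
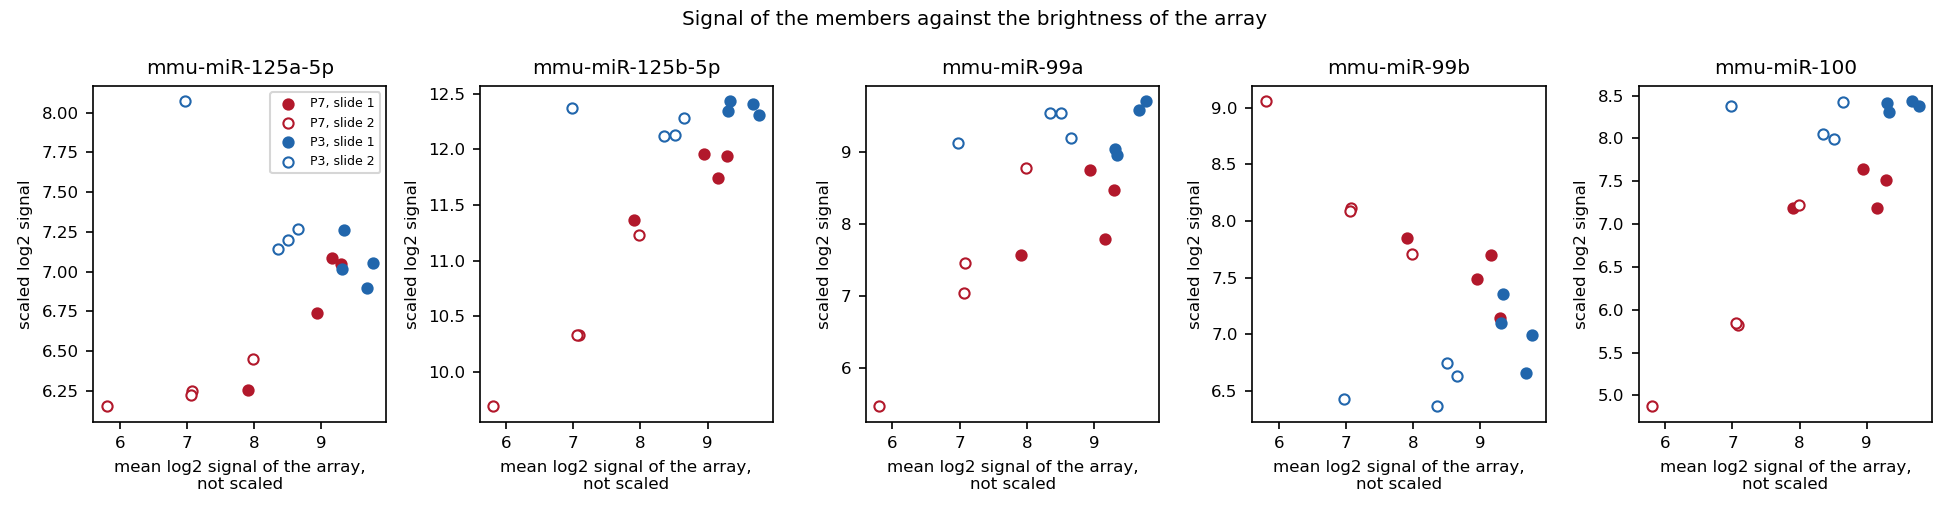
Scaled log2 signal of each member (vertical axes) against the mean unscaled log2 signal of the array over the 57 miRNAs (horizontal axes), for P7 (red) and P3 (blue) arrays of slide 1 (filled) and slide 2 (open). At P7, dimmer arrays have lower miR-125b-5p and higher miR-99b, and the dimmest P3 array, at 6.98, has 12.37 and 6.43.

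Within single groups of MEFs, none of the 5 was called for passage, and few other miRNAs were: 3 of 235 (1.28%) in Ercc1-/- MEFs and 3 (1.28%) in WT MEFs in 20% O2, and 0 (0%) in either genotype in 3% O2. At an unadjusted p under 0.05 there were 86, 16, 74 and 13 miRNAs in Ercc1-/- 20%, WT 20%, Ercc1-/- 3% and WT 3% O2. In each of these 4 comparisons miR-125a-5p, miR-125b-5p, miR-99a and miR-100 had a negative change and miR-99b a positive one, which in the Ercc1-/- MEFs was -0.15 (20% O2) and -0.07 (3% O2) without scaling. The changes of miR-99a were -3.004 (SE 0.70, adjusted p = 0.0640) in Ercc1-/- MEFs in 20% O2, -2.27 (adjusted p = 0.0808) in 3% O2, -1.08 (adjusted p = 0.548) in WT MEFs in 20% O2 and -0.36 (adjusted p = 0.799) in 3% O2. The first of these was -1.84 without replicate 2 of the P7 arrays. It was -4.17 without replicate 1 of them, which leaves the dimmest array of the series alone in that group. With the replicate number as a block in the fit, miR-99a passed in Ercc1-/- MEFs in 20% and in 3% O2, at adjusted p = 0.0280 and 0.0369, and the background became 5 of 235 (2.13%) and 43 (18.3%). In the averaged comparison the block kept all 5 calls, with 95 miRNAs (40.4%) lower and 65 (27.7%) higher. Between the P7 Ercc1-/- MEFs in 20% O2 and the P3 WT MEFs in 3% O2, the groups that differ in all 3 factors, 0 of the 5 and 6 of 235 (2.55%) were called. MiR-99a changed there by -2.50 (SE 0.70, adjusted p = 0.1003), miR-100 by -2.39 and miR-99b by 1.51.

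The order of the 8 groups repeats this split by passage. For miR-125b-5p, miR-99a and miR-100 the 4 P3 groups came before the 4 P7 groups, from the brightest down, and for miR-99b after them. Among the P7 groups the order was the same for miR-125b-5p, miR-99a and miR-100, namely WT 3% O2 (11.60, 8.77 and 7.43), WT 20% O2 (11.14, 7.97 and 6.67), Ercc1-/- 3% O2 (10.85, 7.30 and 6.52) and Ercc1-/- 20% O2 (10.72, 6.62 and 6.03), and it was the reverse for miR-99b. At P7 the Ercc1-/- arrays were also dimmer than the WT arrays of the same slide and oxygen level. The part of brightness in this order was not tested. Most neighbours did not differ beyond their arrays: the values of neighbouring groups overlapped in 5 of 7 steps for miR-125b-5p and miR-100, 4 of 7 for miR-99a and 6 of 7 for miR-99b and miR-125a-5p.

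The genotype comparison sets Ercc1-/- MEFs against WT MEFs, which come from different embryos. Genotype and cell line therefore cannot be told apart. Averaged over passage and oxygen, 0 of the 5 and 4 of 235 miRNAs (1.7%) were called. The changes, Ercc1-/- minus WT, ranged from -0.47 for miR-100 to 0.19 for miR-99b, each with an adjusted p of 0.933, and their 95% confidence intervals together spanned -1.35 to 0.85. In the single comparisons the background was 2 of 235 (0.851%) at P3 in 20% O2, 1 (0.426%) at P7 in 20% O2 and 0 (0%) in 3% O2 at either passage, and none of the 5 was called.

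In all 4 pairs of P7 arrays miR-99a, miR-100 and miR-125b-5p were lower and miR-99b was higher in Ercc1-/- than in WT MEFs. In each of these pairs the Ercc1-/- array was also the dimmer one by mean unscaled log2 signal. In 20% O2 it had 9.16 (slide 1) and 5.80 (slide 2) against 9.29 and 7.08. In 3% O2 it had 7.91 and 7.06 against 8.94 and 7.99. At P3 the Ercc1-/- array was the brighter one, except on slide 2 in 3% O2 (8.35 against 8.65). The part of brightness in the genotype changes was not tested. MiR-99a was the member whose change between genotypes turned between passages in every pair. At P7 it was lower in Ercc1-/- than in WT MEFs on both slides and in both oxygen levels, by -0.69 and -1.999 in 20% O2 and by -1.19 and -1.74 in 3% O2. At P3 it was higher in Ercc1-/- MEFs in all 4 pairs, by 0.74 and 0.42 in 20% O2 and by 0.54 and 0.34 in 3% O2. Within each slide, the Ercc1-/- arrays of a passage did not overlap its WT arrays. How many of the 235 miRNAs turned or parted in the same way was not counted. The fit gave -1.35 (SE 0.70, adjusted p = 0.780) and -1.47 (adjusted p = 0.988) at P7 and 0.58 and 0.44 (adjusted p = 1.00 each) at P3. The P7 change in 20% O2 was -0.18 without replicate 2 of the Ercc1-/- MEFs and -2.51 without replicate 1. The test of the difference between these changes, which is also that of the passage change between genotypes, gave -1.92 (SE 0.70, adjusted p = 0.542) and did not pass. The difference was -1.58 within slide 1 and -2.25 within slide 2. Without replicate 1 of the P7 Ercc1-/- MEFs in 20% O2, which leaves the dimmest array alone in that group, it was -2.50. No miRNA of the 235 (0%) passed the test on all arrays, and 11 had an unadjusted p under 0.05, miR-99a among them. MiR-100 differed by -0.61 and miR-99b by 0.75 in the same test (adjusted p = 0.771 and 0.769). The let-7 family turned by the mean of the 2 arrays of a group, but not in every pair. By these means, Ercc1-/- minus WT was negative for 9 of 9 at P7 in either oxygen level. At P3 it was positive for 8 of 9 in 20% and 9 of 9 in 3% O2, none of them called. On slide 2 at P3 in 20% O2, let-7b and let-7c were higher in Ercc1-/- MEFs. The other let-7 miRNAs, such as let-7a (10.83 against 11.06 in WT), were lower there. How many of the 235 miRNAs turned by such means was not counted.

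**Figure D5:**
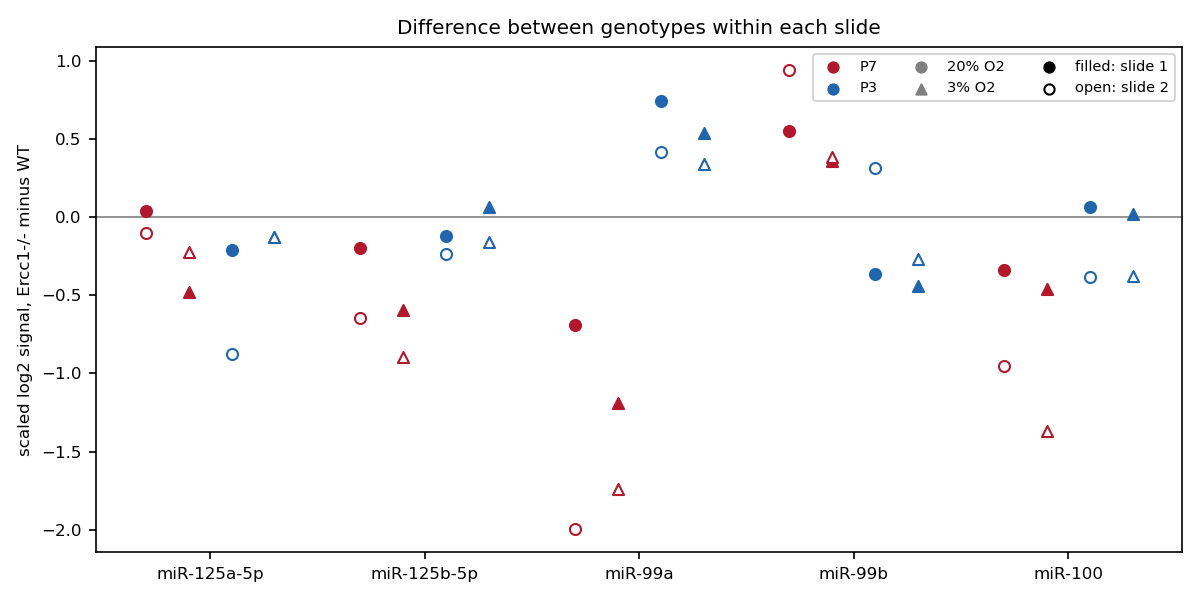
Difference in scaled log2 signal, Ercc1-/- minus WT, within each slide for the 5 members at P7 (red) and P3 (blue) in 20% O2 (circles) and 3% O2 (triangles), with slide 1 filled and slide 2 open. For miR-99a the 4 P7 values lie between -1.999 and -0.69 and the 4 P3 values between 0.34 and 0.74.

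Oxygen did not separate any of the 5 beyond the spread of the arrays. Averaged over genotype and passage, 0 of the 5 and 2 of 235 (0.851%) were called, and the members changed by -0.37 (miR-99a) to 0.26 (miR-125a-5p), 20% minus 3% O2, with adjusted p = 1.00 each and intervals that together spanned -1.22 to 0.87. In each of the 4 single comparisons 0 of 235 (0%) were called, with 1 to 7 miRNAs at an unadjusted p under 0.05. In P7 Ercc1-/- MEFs the change of miR-99a was -1.84 when replicate 1 in 20% O2 was left out, which leaves the dimmest array alone in that group. At P3 the members differed between oxygen levels by -0.08 to 0.52 and at P7 by -0.80 to 0.41. The differences of the passage and of the genotype change between oxygen levels gave 0 calls of 235 (0%) each, with 2 and 0 miRNAs at an unadjusted p under 0.05.

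The let-7 genes of the 3 clusters gave the miRNAs nearest to the members on the genome. Let-7e, which lies between Mir99b and Mir125a, had a change with passage of -2.03 (SE 0.36, adjusted p = 0.00379), or -1.27 within slide 1 and -2.80 within slide 2. It ranged from 5.52 to 8.64 on the P7 arrays, against 8.17 to 9.51 on the P3 arrays, and 7 of 8 P7 arrays lay below all P3 arrays. So of the 3 neighbours on chromosome 17, let-7e and miR-125a-5p were lower and miR-99b was higher after scaling, and on the same array let-7e minus miR-99b had a median of -0.73 at P7 against 2.34 at P3. Let-7c changed by -1.59 (adjusted p = 0.00701) and let-7a by -2.35 (adjusted p = 0.00639), each of which is also made by a gene outside these clusters. Within the array, let-7c minus miR-99a was lower in 4 and higher in 4 of 8 pairs, with a mean change of 0.09, and let-7a minus miR-100 was lower in 7 of 8 pairs, with a mean change of -0.72.

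Of the whole let-7 family, 9 of 9 listed miRNAs were tested, all 9 had a negative change with passage and 8 were called lower, with a median of -2.35 beside -0.39 over all 235. Let-7b was the one not called (-0.62, adjusted p = 0.0597). Since 4 members and 8 let-7 miRNAs are among the 57 that set the scale, the arrays were also scaled on the other 45. All 5 calls were kept, with changes of -2.09 for miR-99a, -2.04 for miR-100, -1.63 for miR-125b-5p, -1.12 for miR-125a-5p and 0.70 for miR-99b. MiR-10a and miR-10b, relatives of the miR-99/100 family from the Hox clusters, were both called lower with passage, but miR-10a was above background on 2 and miR-10b on 3 of the 8 P7 arrays, so the size of their change is not given.

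The other strands of the members' hairpins gave 1 tested miRNA of 4 on the array. MiR-125a-3p, from the hairpin of miR-125a-5p, rose with passage while miR-125a-5p fell. It ranged from 3.53 to 8.10 on the P7 arrays, all above background, against 2.72 to 3.60 on the P3 arrays, of which 6 of 8 were above background. Its change was 1.90 (SE 0.55, adjusted p = 0.0145), or 0.66 within slide 1 and 3.14 within slide 2, and it was higher at P7 in 8 of 8 pairs, or in 5 of 8 on the unscaled signal, where the averaged change was 0.98. MiR-125a-3p minus miR-125a-5p on the same array had a median of -1.65 at P7 against -4.10 at P3 and was higher in 8 of 8 pairs. MiR-99b* was above background on 1 array, and miR-125b* and miR-125b-3p on none. MiR-351, which shares the miR-125 seed, was tested and not called (-0.46, SE 0.44, adjusted p = 0.367), and miR-670, whose bases 2 to 8 are the miR-125 seed shifted by 1 base, was above background on 1 array only. Their sequences show the seed and the shift.

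mmu-miR-351: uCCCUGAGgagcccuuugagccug
mmu-miR-670: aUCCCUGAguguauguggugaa

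Among the members, miR-125b-5p and miR-100 were the most alike over the arrays, with a Pearson r of 0.99 over 16 arrays, 0.84 over the 8 P3 arrays and 0.98 over the 8 P7 arrays. Each is encoded in the chromosome 9 cluster. MiR-99a and miR-125b-5p had r = 0.91 over 16 arrays, 0.85 at P7 and -0.49 at P3. The pair from chromosome 17, miR-125a-5p and miR-99b, had r = -0.82 over 16 arrays, -0.74 at P7 and -0.36 at P3. The arrays share the difference between passages and between slides, so these values are descriptions only.

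Of the other tested miRNAs, those most like miR-125b-5p were miR-30c (r = 0.97), miR-148a (0.97) and miR-26b (0.96) over the 16 arrays. These were above background on 13, 13 and 12 of the 16 arrays. Those most like miR-100 were miR-30c (0.96), miR-148a (0.95) and miR-15b (0.95), and those most like miR-99a were miR-652 (0.94), miR-151-5p (0.94) and miR-15b (0.93). MiR-15b, miR-652 and miR-151-5p were each above background on 15 arrays. MiR-30c followed miR-125b-5p at P7 (r = 0.99) and not at P3 (r = -0.36). MiR-125a-5p was most like miR-872 (0.91), miR-369-5p (0.90) and miR-674* (0.90), which were above background on 9 or 10 of the 16 arrays. MiR-99b was most like miR-671-5p (0.97), miR-1894-3p (0.96) and miR-1904 (0.96), with r = 0.91, 0.80 and 0.82 over the P3 arrays, and it ran against let-7a, let-7c and let-7e (r = -0.90, -0.90 and -0.88). MiR-671-5p and miR-1894-3p were above background on 13 and 12 of the 16 arrays, and miR-1904 on all 16.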

How the data were processed

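The arrays carry 13715 spots each. The authors extracted the deposited intensities with Agilent Feature Extraction (10.7.1.1 in the file headers, while their methods name another version), as background-subtracted processed signals without scaling between arrays, and the deposited series table of summed intensity per miRNA was used only as an alternative. Control and outlier spots were dropped, and spots were averaged per probe and probes per miRNA. Detection of a miRNA needed 1 probe with a share of 0.5 or more of its spots marked as well above background. Each array was shifted so that the 57 miRNAs detected throughout had the same mean log2, with a floor of 2.82 on the scaled signal. The 235 miRNAs were fitted with limma 3.58.1 (R 4.3.3) with 1 mean per group over 16 arrays (8 residual degrees of freedom). P-values were adjusted by Benjamini-Hochberg in each of 19 comparisons separately, and miRNAs called at an adjusted p under 0.05. SE and intervals come from this fit. With 2 arrays per group, precision is limited.

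Same-numbered arrays deviated together within a passage (median r across miRNAs of 0.811 at P7 and 0.607 at P3) and not across passages (0.034). A fit with a replicate block was made for all comparisons, and, for the averaged passage comparison, one on 4 means per miRNA, 1 per slide and passage (2 residual degrees of freedom), chosen after seeing the data. The block changed calls only for miR-99a in the passage comparisons of Ercc1-/- MEFs.

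The members and the lists of related and marker miRNAs were chosen with earlier results of these data known. Named miRNAs were the members, the let-7 miRNAs of their clusters, detected strands and seed relatives, and the 3 tested miRNAs with the highest Pearson r to each member. The alternatives changed scaling, background correction, summary, floor, filter, detection, design and test one at a time. The normexp correction (offset 50) used the median spot signal in place of the planned mean signal. Mature sequences were matched by name to RefSeq (GRCm38.p6) for 5 of 5 members.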

Additional observations from a re-analysis of the deposited data

Results flagged for a closer look

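One result stood out because every pair of arrays moved one way at one passage and the opposite way at the other. The change of mmu-miR-99a between genotypes, Ercc1-/- minus WT, lay between -1.999 and -0.69 in the 4 pairs of P7 arrays, against 0.34 to 0.74 in the 4 pairs of P3 arrays. In each P7 pair the Ercc1-/- array was also the dimmer one, and the part of brightness was not tested. The difference was -1.92 on the log2 scale (adjusted p = 0.542 by limma over 235 miRNAs), and without replicate 2 of the P7 Ercc1-/- MEFs in 20% O2 it was -1.34. Without replicate 1 of that group, which leaves the dimmest array alone in it, the difference was -2.50. The groups of 2 arrays are too small for a search for single outlying arrays.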

How the results depend on the processing

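Of 1464 values recomputed for 54 results, 1392 were counted as unchanged. For a single miRNA this means the same direction and side of the threshold. For a number of members called it allows a small change, so that 4 calls in place of 5 count as unchanged. Most of the 54 results had no call to lose. The 5 calls of the averaged passage comparison became 2 (miR-99a and miR-100) when scaled to the mean of all miRNAs, 1 (miR-99a) without scaling, 3 without the filter on dim miRNAs, where more miRNAs were tested, and 0 on 1 mean per slide and passage, a fit of 4 values chosen after seeing the data. Leaving out 1 array at a time gave 4 to 5. Over the other alternatives the averaged change ranged from -2.60 to -1.23 for miR-99a and from 0.19 to 1.44 for miR-99b, and that of miR-125a-5p lost its call under 10 of 18. In the passage comparison of Ercc1-/- MEFs in 20% O2, 1 member, miR-99a, was called under some alternatives, in place of 0. These were normexp, the brightest probe, only miRNAs above background on all arrays, the replicate block and a random block. The random block combined genotype with replicate number as a stand-in for the cell line. The labels do not tie lines to arrays, so whether this block follows the cell lines was not tested. In 3% O2, 1 was called with normexp, only miRNAs above background on all arrays, the replicate block, the random block or the methods' t-test at its own fold and p. Leaving out 1 array at a time gave 0 to 4 calls in the comparison in 20% O2 and in that of P7 Ercc1-/- MEFs in 20% O2 with P3 WT MEFs in 3% O2, and 0 to 1 for genotype at P7 in 20% O2, oxygen in P7 Ercc1-/- MEFs and the difference of the passage change between genotypes, in each case through replicate 1 of the P7 Ercc1-/- MEFs in 20% O2, whose absence leaves the dim array alone. Directions turned for miR-99b with oxygen (-0.0413 scaled to the mean of all miRNAs and -0.0386 without scaling), for miR-99b with passage in Ercc1-/- MEFs without scaling (-0.152 in 20% and -0.0746 in 3% O2), for miR-125a-5p in Ercc1-/- MEFs in 20% O2 (0.0594 with normexp, 0.334 with the total signal) and for miR-125b-5p with oxygen (-0.39 to 0.12 with 1 array left out, above 0 without replicate 2 of the P7 WT or P7 Ercc1-/- MEFs in 20% O2). The cause of each was not tested. Signal over background limits miR-100 on the dimmest array.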
